A study of Mus musculus with 6 samples.

Results

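ATF3 ChIP-seq peaks of mouse bone marrow-derived macrophages (BMDMs) that lay between genes, more than 100 kb from the nearest annotated transcription start site (TSS), are described here. They were taken from the peaks called in wild-type cells alone, called standard peaks below. A peak entered where the authors' annotation was "Intergenic", where no repeat was named at its centre and where the absolute distance to the TSS was above 100 kb. The standard list of unstimulated cells had 197 such peaks among 2779, that of HDL had 350 among 5319 and that of HDL + CpG had 277 among 3790, in all 824 peaks at 573 separate loci. They made up 7.09%, 6.58% and 7.31% of the standard peaks.

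Bone marrow of C57BL/6 mice aged 6 to 8 weeks was cultured for 6 days in M-CSF at 40 ng/ml, and Atf3 +/+ (WT) macrophages were set against Atf3 -/- (KO) macrophages from age- and sex-matched mice. Each genotype received medium alone, HDL at 2 mg/ml over 6 h, or this HDL treatment and then CpG at 100 nM over 4 h. The same rabbit polyclonal antibody (2.5 µg) was used in both genotypes, so the KO library measures what it precipitates without its target. The labels count 3 biological replicates, which were joined before alignment. There was thus 1 pooled WT and 1 pooled KO library per condition and no spread between mice, and every test below compares libraries. Depth lay between 37137377 and 75534584 reads, and the KO library was 2.03 times as deep as its WT partner in unstimulated cells, 1.74 times with HDL and 0.96 times with HDL + CpG. Tags are reads scaled to 10000000 per library, and the median member held 50 WT reads in unstimulated cells, 44.5 with HDL and 59 with HDL + CpG. WT/KO is the ratio of tags, with an exact 95% interval from the reads that covers counting error only. A condition and its pair of libraries cannot be told apart.

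ATF3 is a basic leucine zipper factor of the ATF/CREB family that is induced by stress and by Toll-like receptor ligands, and in macrophages it is known as a repressor of inflammatory genes. With JUN proteins it binds AP-1 sequences, and it can also bind the cyclic AMP response element (CRE). Far from genes, such factors bind mostly at enhancers, which can act on promoters over long distances, so the nearest gene is only a label for a position and need not be the target. Long gaps between genes are also rich in tandem repeats, copies of mitochondrial DNA and sequence that occurs many times in the genome. To those places short reads cannot be assigned with certainty, and the authors kept the best position of a read with several matches. KOIN (knockout implemented normalization) is the authors' procedure that calls WT peaks against the KO library and discards those shared with KO or with a WT/KO under 2. A member is called kept where a KOIN-corrected peak of its condition overlapped it by at least 1 bp, and removed otherwise.

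The sequences under these peaks are shown first, because the members fell into very unlike kinds of DNA. All are from the plus strand of NCBIM37, the assembly of mm9. The first set holds kept members with many WT tags and an exact AP-1 sequence near the peak centre, here in capitals.
Klf7, chr1:64347872-64347938: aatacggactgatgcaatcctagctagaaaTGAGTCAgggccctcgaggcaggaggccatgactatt
Gm20125, chr10:17067694-17067760: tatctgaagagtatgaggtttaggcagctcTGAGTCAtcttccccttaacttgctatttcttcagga
Basp1, chr15:25199453-25199519: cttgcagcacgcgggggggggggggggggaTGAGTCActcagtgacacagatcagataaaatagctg
Sh2d4a, chr8:70681221-70681287: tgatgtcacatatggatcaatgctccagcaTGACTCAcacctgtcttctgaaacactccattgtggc
Bach2, chr4:32337730-32337796: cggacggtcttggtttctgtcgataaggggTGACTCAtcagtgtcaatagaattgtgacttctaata
Fmo9, chr1:168718248-168718314: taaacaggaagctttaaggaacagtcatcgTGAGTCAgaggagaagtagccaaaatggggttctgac
The AP-1 match lay between 17 bp (Fmo9) and 46 bp (Bach2) from the centre of its peak.

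The second set comes from members with many tags. Near Fat1 the peak covered 10 exact copies of the 7-base unit GGGGTTT, in capitals. Near 1700019M22Rik the peak lay on a nuclear copy of mitochondrial DNA, of which the 120 bases around its centre are given without capitals.
Fat1, chr8:45784294-45784413: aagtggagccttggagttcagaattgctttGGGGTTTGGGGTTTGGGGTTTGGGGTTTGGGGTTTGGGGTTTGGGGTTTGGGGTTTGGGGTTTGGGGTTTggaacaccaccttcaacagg
1700019M22Rik, chr12:98299822-98299941: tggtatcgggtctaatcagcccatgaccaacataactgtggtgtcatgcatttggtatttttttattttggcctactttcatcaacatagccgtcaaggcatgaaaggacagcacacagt

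In unstimulated cells KOIN kept 39 of the 197 members (19.8%, Wilson 95% interval 14.8 to 25.9), under HDL 203 of 350 (58%, 52.8 to 63.1) and under HDL + CpG 66 of 277 (23.8%, 19.2 to 29.2). Over all standard peaks the share kept was 20.7%, 54.9% and 29.7%. The members were therefore near the share of all standard peaks in unstimulated cells and with HDL, and below it with HDL + CpG. Of all standard peaks, however, 1683, 2502 and 1898 lay on annotated repeats, which the members exclude. Intergenic peaks off repeats at 10 to 100 kb were kept at 33.3%, 60.6% and 49%, and the members' interval lay below this in unstimulated cells and with HDL + CpG. A WT/KO of at least 2 was found at 55, 234 and 82 members, where 31.3%, 66.6% and 34.6% of all standard peaks reached it. The median WT/KO of the members was 1.6 in unstimulated cells, 2.45 with HDL and 1.3 with HDL + CpG, beside 1.66, 2.41 and 1.42 for all standard peaks. Between 16 and 31 removed members per condition had a WT/KO of at least 2, among them the Klf7 peak in unstimulated cells.

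By a two-sided exact binomial test of reads, adjusted by Benjamini-Hochberg over all standard peaks of a condition, 103, 266 and 104 members had more WT than KO reads, and 2, 9 and 9 had fewer. Of all standard peaks, 56.2%, 79.5% and 40.9% had more WT reads and 0.900%, 0.902% and 2.85% had fewer. Because the peaks were called in WT alone, the lists lean towards more WT reads before any test. The binomial calls take the library totals as the scale. Standard peaks on annotated repeats had a median WT/KO of 1.52 in unstimulated cells, 2.2 with HDL and 1.09 with HDL + CpG, and when that median was taken as the expected ratio, 29, 41 and 95 members had more WT reads and 49, 64 and 26 had fewer. On this scale 15.4%, 9.68% and 35.4% of all standard peaks had more WT reads, beside 14.7%, 11.7% and 34.3% of the members. HDL + CpG thus had the highest share of more WT reads among members and among all peaks alike. Fewer WT reads were found at 13.2%, 12.1% and 6.54% of all standard peaks. Of the members, 24.9% (Wilson 95% interval 19.4 to 31.4), 18.3% (14.6 to 22.7) and 9.39% (6.49 to 13.4) had fewer. In unstimulated cells and with HDL the members' interval lay above the share of all peaks. Multi-copy members, a sequence group defined below, made up 28 of these 49 and 30 of these 64. Members in none of the sequence groups made up 13 and 22. Most multi-copy members lay in a cluster on chromosome X, and the interval counts its similar copies as separate peaks.

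**Figure D1:**
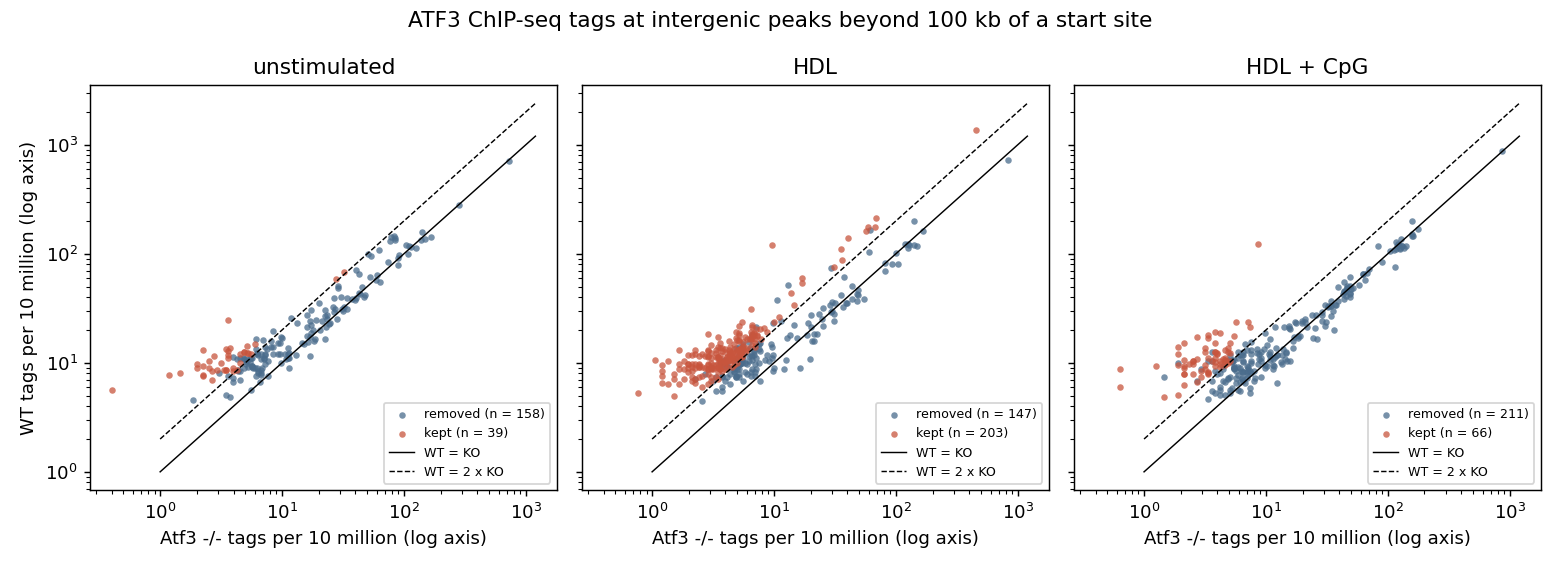
WT tags (y axis) against KO tags (x axis) per 10000000 reads, on log axes, at each intergenic peak beyond 100 kb, for the 3 conditions. Red points are kept and blue points removed, and the lines mark equal tags and a WT/KO of 2. The median kept member has a WT/KO of 3.09 in unstimulated cells, 2.92 with HDL and 3.17 with HDL + CpG, and the median removed one 1.31, 1.47 and 1.1.

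The members were then sorted by the DNA over their whole span. These groups were drawn up after the values had been seen, and no test was run on them. A member was telomere-type with 4 or more exact units of the telomere repeat in a row on either strand (42 members), wherever on the chromosome it lay. It was mitochondrial-like where at least 100 bases matched the mitochondrial genome at 90% identity or more (15). A multi-copy member had at least 50% of its 51-base words recurring elsewhere in the genome (127). A tandem repeat had a run of at least 30 bases of a unit of up to 7 bases (265). The other 375 members were in none of these groups. Thus 64%, 51.4% and 51.6% of the members were in a sequence group, although the annotation named no repeat at their centre, beside 58.1%, 44.8% and 47.4% of all standard peaks.

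Members in none of the groups were kept most often in unstimulated cells (26 of 71, 36.6%) and with HDL + CpG (57 of 134, 42.5%), and with HDL at 118 of 170 (69.4%), close to the telomere-type members (9 of 12). Their median WT/KO was 1.91 in unstimulated cells, 2.64 with HDL and 2.04 with HDL + CpG. Tandem repeats were kept at 11 of 67, 76 of 128 and 7 of 70, with medians of 1.7, 2.42 and 1.21. Most tandem runs were of AG (29, 53 and 30 members) or AC (21, 31 and 17). Multi-copy members were kept at 1 of 42, 0 of 35 and 2 of 50, and mitochondrial-like ones at 0 of 5 in each condition. Of all standard peaks of the same kind, 32%, 60.5% and 47.4% were kept in none of the groups, 16.8%, 55.1% and 12.1% on tandem repeats and 4.85%, 12% and 9.44% of the multi-copy ones, and 0 of 10 mitochondrial-like ones in each condition. Without the sequence groups, the members' medians stand close to those of all standard peaks in none of the groups (1.82, 2.51 and 2.13).

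**Figure D2:**
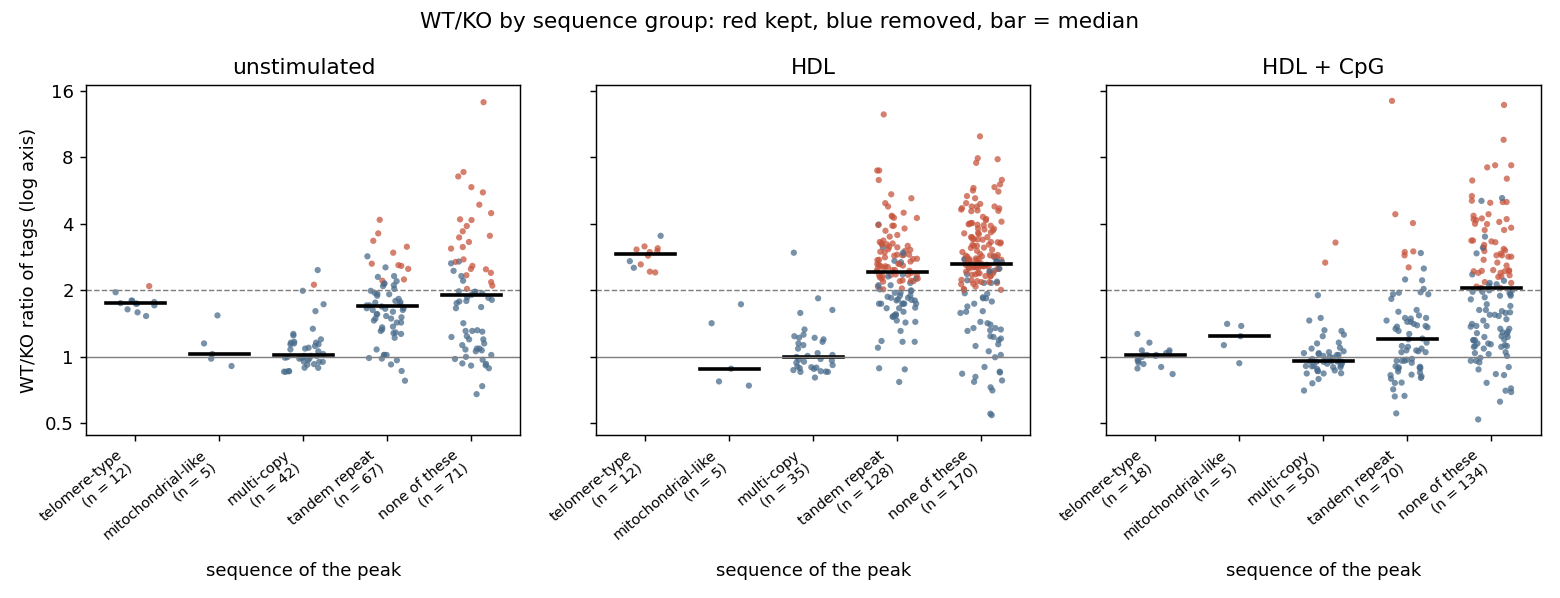
WT/KO (y axis, log scale) of each member by the kind of sequence under the peak (x axis), for the 3 conditions. Red points are kept, blue points removed, black bars are medians, and the grey lines mark a WT/KO of 1 and 2. Telomere-type members form a tight band at a median of 1.75 in unstimulated cells, 2.92 with HDL and 1.01 with HDL + CpG, while multi-copy members stay around 1 throughout.

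Telomere-type members had the highest median of WT tags of any group (104, 136 and 69.3) and moved together between conditions, although in unstimulated cells single tandem repeat members had more, up to 706. The peak near G530011O06Rik (chrX:166526634-166527655), over which 100% of the 51-base words recurred elsewhere, had 1090 WT and 614 KO tags in unstimulated cells, where it is no member because its centre lay on a repeat. It had 1360 WT and 451 KO tags with HDL and 874 and 860 with HDL + CpG. Near Barhl2, which encodes a homeobox factor of the nervous system, the peak 281 kb from the TSS had 172 WT and 104 KO tags in unstimulated cells (no member there), 211 and 69.2 with HDL and 138 and 129 with HDL + CpG. Near Fam43a (230 kb) there were 134 and 84.2 tags in unstimulated cells, 177 and 67.5 with HDL and 116 and 102 with HDL + CpG (no member there). At each of these loci WT/KO was highest with HDL and lowest with HDL + CpG.

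The spread within the group was small. WT/KO ran from 1.53 to 2.09 over 12 members in unstimulated cells, from 2.41 to 3.53 over 12 with HDL and from 0.836 to 1.27 over 18 with HDL + CpG, so the members' ranges did not overlap between conditions. The locus near Atg4c, an autophagy protease gene, was a member in all 3 conditions, at 1.53 (1.29 to 1.82), 2.41 (2.01 to 2.9) and 1.27 (1.07 to 1.52). All telomere-type standard peaks together, members included, had medians of 1.76 over 166 peaks, 2.94 over 169 and 0.998 over 163, with ranges of 1.23 to 3.39, 1.1 to 4.47 and 0.467 to 1.54 that did overlap, and of those 5.42%, 75.7% and 0% were kept. Set against the median of repeat peaks, the members stood at a median of 1.15, 1.33 and 0.924. With HDL + CpG only 1 of the 18 had been called with more WT reads. Whether this belongs to the treatment or to the libraries cannot be told apart.

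Mitochondrial-like members were at 5 loci, and each was a member in all 3 conditions. Near 1700019M22Rik (1014 kb from the TSS) 365 bases matched the mitochondrial genome at 99.7% identity. It was the removed member of highest score in unstimulated cells, with 114 WT and 126 KO tags. With HDL it had 199 and 140, and with HDL + CpG 198 and 159. Near Nxph1, which encodes a ligand of neurexins, a copy of 311 bases at 95.8% identity had 104 WT and 60.1 KO tags with HDL, a WT/KO of 1.73 (adjusted p = 3.20e-13, exact binomial test). Both loci had more WT reads with HDL and with HDL + CpG but stayed under a ratio of 2, and the direction of the HDL calls turned on the scale of repeat peaks (0.646 and 0.787).

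The multi-copy members were mostly a cluster on chromosome X. Of 42, 35 and 50 multi-copy members, 30, 24 and 36 were on this chromosome, and 29, 24 and 33 of those lay between 119 and 124 Mb. The nearest gene was most often Vmn2r121, a vomeronasal receptor gene (17, 13 and 21 peaks). These peaks were wide, with a median of 2466 bp in unstimulated cells, 2461 bp with HDL and 2750 bp with HDL + CpG, against 820, 770 and 812 bp over all members. Their median WT tags were 38.8, 41.8 and 46.4 and their median KO tags 40, 45.7 and 46.3, and none was kept. On chromosome X as a whole 0 of 39, 4 of 36 and 0 of 50 members were kept, and on chromosome Y 0 of 7, 0 of 10 and 0 of 10. Gene lists that read the nearest gene take this cluster in: the olfactory and vomeronasal receptor genes had 22, 18 and 26 members, 20, 17 and 26 of them multi-copy, and 0 kept.

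Distance was described within the class of intergenic peaks off repeats. With HDL + CpG the share kept fell from 55.3% (94 of 170) within 10 kb of a TSS and 49% (234 of 478) between 10 and 100 kb to 32.1% (42 of 131) at 100 to 200 kb, 22.6% (21 of 93) at 200 to 500 kb and 5.66% (3 of 53) beyond 500 kb. In unstimulated cells these shares were 38.1%, 33.3%, 28%, 17.7% and 5.56%, the last being 2 of 36. With HDL they were 63.4%, 60.6%, 63.1%, 57.1% and 47.9%, a smaller fall with overlapping intervals. The makeup of the peaks moved with distance as well. Sequence groups held 26.5% of the peaks within 10 kb with HDL + CpG and 83% of those beyond 500 kb, and with HDL 22.2% and 70.4%.

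Among peaks in none of the groups the share kept between 10 and 500 kb fell less in unstimulated cells and with HDL + CpG, and with HDL it did not fall. Within 10 kb it was 45.8% in unstimulated cells, 67.2% with HDL and 60.8% with HDL + CpG. In unstimulated cells it was 43.6% at 10 to 100 kb, 42.1% at 100 to 200 kb and 40% at 200 to 500 kb. With HDL it was 63.7% (59.4 to 67.7), 70.1% (60.4 to 78.3) and 73.1% (59.7 to 83.2), with overlapping intervals. With HDL + CpG it was 57.5%, 47.6% and 39.5%. Beyond 500 kb there were few such peaks, and 0 of 8 were kept in unstimulated cells (upper Wilson bound 32.4%), 1 of 9 under HDL + CpG and 12 of 21 under HDL alone. The part of the sequence makeup in the fall with distance was not tested.

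**Figure D3:**
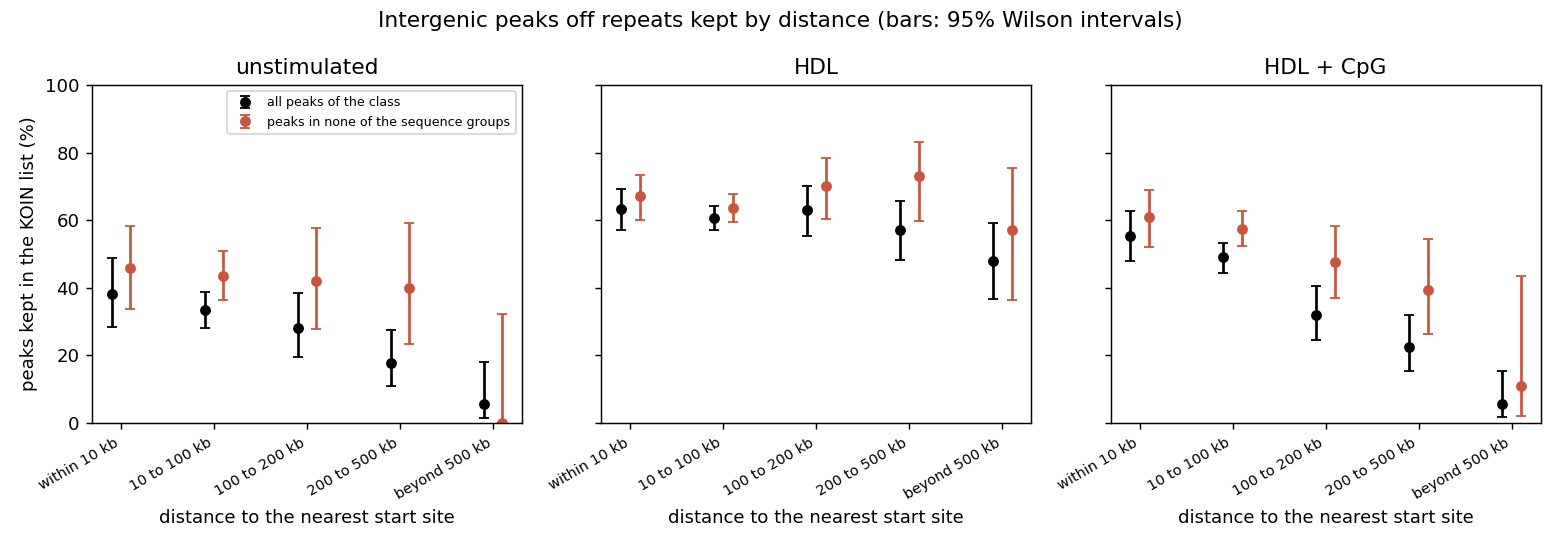
Share of intergenic peaks off repeats that KOIN kept (y axis, %) by distance to the nearest TSS (x axis), for the 3 conditions, with 95% Wilson intervals. Black points are all peaks of a class and red points those in none of the sequence groups. The black points fall from 55.3% to 5.66% with HDL + CpG, and the red points lie above them up to 500 kb in each condition.

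The nearest TSS in the authors' annotation was at a median of 234 kb in unstimulated cells, 218 kb with HDL and 208 kb with HDL + CpG. The member farthest from a TSS was near Slc39a10, a zinc transporter gene, at 2028 kb in unstimulated cells and with HDL. It had 20.2 WT and 20.6 KO tags in unstimulated cells, 27.4 and 20.3 with HDL and 16.4 and 26.1 with HDL + CpG, where it had fewer WT reads (adjusted p = 0.00343, exact binomial test). With HDL + CpG the farthest was near Pcdh17, a protocadherin gene, at 2058 kb with 5.66 and 5.05 tags. Neither was kept. At the limit of 100 kb, the members just inside were at 100019 bp (Reg3g, HDL, WT/KO 2.97), 100149 bp (Mir448, HDL + CpG, 1.97) and 100486 bp (3110007F17Rik, unstimulated, 0.965), and the peaks just outside at 99853 bp (4921513I03Rik, HDL, 1.97), 99692 bp (Gm4736, HDL + CpG, 1.97) and 99058 bp (Lbr, HDL, 0.777).

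A second annotation, GENCODE vM1 on the same assembly, has many more transcripts, small RNAs and pseudogenes included. Against the label of these peaks, by this annotation the centre of 10, 30 and 19 members lay inside a gene, and 82, 162 and 116 members were more than 100 kb from any TSS. The Bach2 peak, for instance, was 167 kb upstream in the authors' annotation and inside the longer Bach2 gene model in GENCODE, and the peaks near Gm14005 were inside the lincRNA of that name. Of the members beyond 100 kb in both annotations, 20 of 82, 94 of 162 and 32 of 116 were kept. The gap between the protein-coding genes on either side had a median of 571 kb in unstimulated cells, 725 kb with HDL and 537 kb with HDL + CpG.

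AP-1 sequences (TGACTCA or TGAGTCA, which are each other's complement) stood within 100 bp of the centre at 6.6% of the members in unstimulated cells, 16% with HDL and 17.3% with HDL + CpG, beside 9.36%, 16.4% and 16.6% of all standard peaks. In windows moved by 1000 bp the members' share was 2.03%, 2% and 3.61%. Nearly all matches were at members in none of the sequence groups, where 11 of 71, 50 of 170 and 43 of 134 had one. Within a sequence group there were 2 of 126, 6 of 180 and 5 of 143. The CRE (TGACGTCA, its own complement) was at 0 of the 197, 350 and 277 members, which allows a share of up to 1.91%, 1.09% and 1.37% (upper Wilson bounds), beside 0.252%, 0.696% and 0.66% of all standard peaks. The ATF4-C/EBP sequence (TGATGCAA or its complement TTGCATCA) was at 2.03%, 3.14% and 3.61% of members and at 2.27%, 3.03% and 1.95% of all standard peaks.

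Among members in none of the groups, the kept ones held an AP-1 sequence more often than the removed ones in each condition. With HDL + CpG it was in 26 of 57 kept (45.6%, 33.4 to 58.4) and 17 of 77 removed (22.1%, 14.3 to 32.5). With HDL the counts were 41 of 118 (34.7%, 26.8 to 43.7) and 9 of 52 (17.3%, 9.38 to 29.7), and in unstimulated cells 6 of 26 and 5 of 45. Over all standard peaks in none of the groups the shares were 41.2% of kept and 14.7% of removed with HDL + CpG, 30.7% and 17.5% with HDL and 35.7% and 11.6% in unstimulated cells. The members' intervals held these values in each condition, widest for the 26 kept members of unstimulated cells (23.1%, 11 to 42.1). In unstimulated cells the median WT/KO was 2.45 at members with the sequence and 1.83 at those without. With HDL it was 2.66 and 2.64, and with HDL + CpG 2.45 and 1.73.

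**Figure D4:**
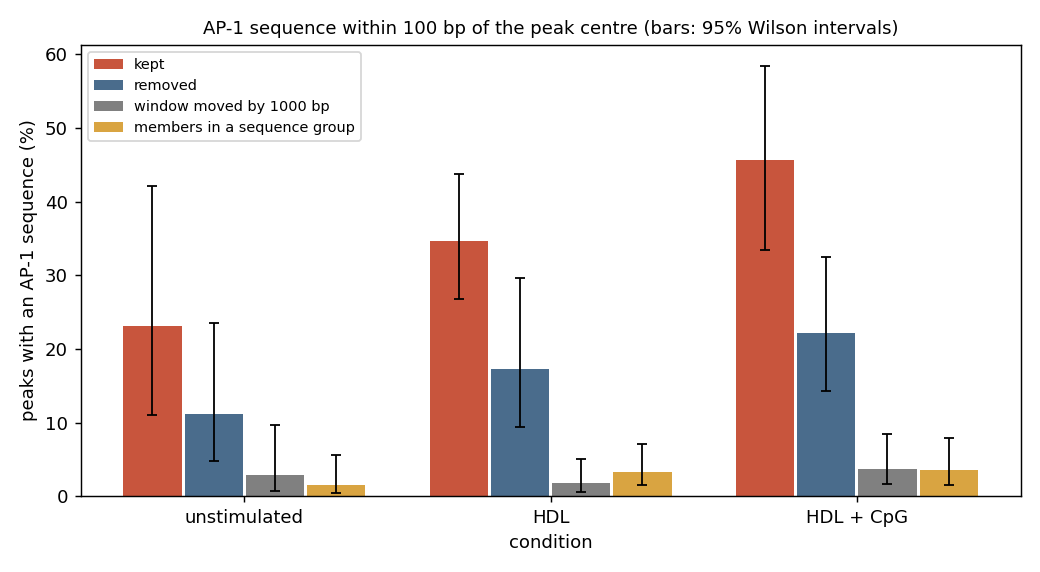
Share of members with an AP-1 sequence within 100 bp of the peak centre (y axis, %) by condition (x axis), with 95% Wilson intervals. Red bars are kept and blue bars removed members in none of the sequence groups, grey bars are windows of those members moved by 1000 bp, and yellow bars are members in a sequence group. With HDL + CpG the bars stand at 45.6%, 22.1%, 3.73% and 3.5%.

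Kept members off the sequence groups had moderate tags. Near Klf7, which encodes a zinc finger factor, the peak 180 kb upstream had 16.4 WT and 6.09 KO tags in unstimulated cells, 26.1 and 11.1 with HDL and 23.9 and 5.68 with HDL + CpG. It was kept in the 2 stimulated conditions, and no 51-base word of it recurred in the genome. The AP-1 sequence printed for it lay 26 bp from the centre. The peak near Creb1, a bZIP factor of the same family as ATF3, lay in the same gap of 411 kb between Klf7 and Creb1, 158 kb upstream and over an AC run, and was kept with HDL + CpG at 21.2 WT and 7.37 KO tags.

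The other printed AP-1 windows belonged to peaks with different courses. Near Gm20125 the peak 252 kb upstream had 24.5 WT and 3.57 KO tags in unstimulated cells, 13.2 and 3.33 with HDL and 10.5 and 5.26 with HDL + CpG, so WT/KO was 6.86 (4.42 to 11), 3.96 (2.35 to 6.86) and 2 (1.22 to 3.36). Near Sh2d4a, 119 kb upstream, there were 11 and 3.57 tags in unstimulated cells and 19 and 6.51 with HDL, kept in both. The Basp1 peak, which also spans a tandem run, was kept with HDL only (21.9 and 5.15) and had a WT/KO of 1.66 and 1.83 in the other 2 conditions. No window was printed for Dtnbp1 or Epha7. Near Dtnbp1, 107 kb upstream, there were 8.35 and 4.37 tags in unstimulated cells, 31.1 and 6.51 with HDL and 11.1 and 5.89 with HDL + CpG. The Dtnbp1 peak was kept with HDL only. Near Epha7, an ephrin receptor gene, an AP-1 peak 389 kb upstream was kept at 15.8 and 4.24 with HDL and at 6.06 and 0.63 with HDL + CpG, a WT/KO of 9.6 (2.99 to 49.2) that rests on 3 KO reads.

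Prdm1, which encodes the repressor Blimp-1, had 4 members with HDL and 4 with HDL + CpG, between 144 and 244 kb upstream. All 4 were kept with HDL, at a WT/KO of 4.03, 2.64, 3.26 and 3.29. With HDL + CpG those at 144 and 167 kb were kept, at 5.09 and 5.34, while those at 201 and 233 kb were removed at 2.36 and 1.27. No Prdm1 member was found in unstimulated cells, and none held an AP-1 sequence within 100 bp. Near Zfp608, 419 kb upstream, a peak was kept in every condition at 3.91 (2.39 to 6.55), 3.21 (2.19 to 4.74) and 6.28 (3.48 to 12.3). It was the only locus that was a member in 3 conditions and kept in each.

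Other loci were kept in both stimulated conditions and had no standard peak in unstimulated cells. Near Frmd6 (130 kb upstream) there were 17.1 WT and 5.75 KO tags with HDL and 19 and 3.79 with HDL + CpG. Near Igf1, an insulin-like growth factor gene (162 kb upstream), there were 14 and 5.45, then 12.3 and 4. Near Gja1, the connexin 43 gene (221 kb), there were 17.9 and 5.15, then 9.5 and 3.16. The peak 113 kb from Tomm20 had 14.5 and 6.66 with HDL and 23.9 and 7.16 with HDL + CpG, and that near F930015N05Rik 12.9 and 5.15, then 13.8 and 3.16. At each of these the intervals of WT/KO in the 2 conditions overlapped. Set against the median of repeat peaks, the Tomm20 peak fell to 0.989 with HDL, while the other 4 stayed above 1.

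Fat1, an atypical cadherin gene, stood apart among tandem repeats. Its peak 251 kb upstream had 78.9 WT and 22.8 KO tags in unstimulated cells, where its centre was annotated to a repeat and it is no member. With HDL it had 121 and 9.69, and with HDL + CpG 124 and 8.63, a WT/KO of 12.5 (9.62 to 16.5) and 14.4 (10.5 to 20.2). Unlike the telomere-type tracts, this locus had fewer KO tags and a higher ratio with HDL + CpG than in unstimulated cells. Members on runs of ACAG had a median WT/KO of 1.78 in unstimulated cells (1 of 8 kept), 2.56 with HDL (9 of 14 kept, highest 4.3) and 1.02 with HDL + CpG (0 of 10 kept).

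Gene lists were read by the nearest gene. Blood and immune transcription factors had 1, 11 and 10 members, of which 0, 8 and 6 were kept, with a median WT/KO of 2.7, 2.64 and 3.27. Of these peaks 1, 8 and 9 were in none of the sequence groups, with 0, 7 and 6 of them kept. Over all members the share kept was 19.8%, 58% and 23.8%. All members in none of the groups were kept at 36.6%, 69.4% and 42.5% and had medians of 1.91, 2.64 and 2.04. The peaks of this list lay near Klf4, Klf6, Klf7, Mef2c, Meis1, Prdm1 and Zeb2, and with HDL 4 of the 11 were those of Prdm1. Klf4, a zinc finger factor of monocyte differentiation, had kept peaks at 2.55 and 2.86 with HDL and 2.4 with HDL + CpG. Near Zeb2, a repressor needed in tissue macrophages, a kept peak of each stimulated condition stood at 4.49 and 7.2. Among bZIP genes, Bach2, a repressor of B cell and myeloid genes, was kept with HDL at 2.16 (1.51 to 3.11), which fell to 0.982 against repeat peaks. Maf was kept with HDL + CpG at 4.98 (2.89 to 9.12) and removed with HDL at 1.86.

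The counts of the other lists stand beside a share kept of 19.8%, 58% and 23.8% over all members. Cytokine and Toll-like receptor genes had 0, 3 and 4 members, of which 0, 1 and 2 were kept. The peak near Dusp10, a phosphatase gene of MAP kinases, was kept with HDL + CpG at 8.89 WT and 2.11 KO tags. Nfkbiz, an NF-κB cofactor gene, had a peak at 123 kb that was removed (1.35 and 1.34) and another at 267 kb that was kept (3.05 and 2.16). Genes of neuronal adhesion and synapses had 7, 13 and 9 members, of which 0, 8 and 1 were kept, and developmental transcription factors 3, 8 and 4, of which 0, 3 and 1 were kept. Lymphocyte genes had 1, 1 and 0 members and muscle genes 0, 1 and 0, with 1 of each kept with HDL (Rag2 and Sgcd). No member had a gene of macrophage identity or of lipid handling as its nearest gene.

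Recurrence differed by the kind of DNA. Of the 573 loci, 386 were members in 1 condition, 126 in 2 and 61 in 3. Part of this came from the annotation, since 188 loci had in another condition a standard peak whose centre was on a repeat. Counting any standard peak, 26 of 28 telomere-type and 5 of 5 mitochondrial-like loci were called in all 3 conditions. Of multi-copy loci it was 27 of 75, of tandem repeats 74 of 202 and of loci in none of the groups 52 of 263. Of the last, 145 were called in 1 condition. Median WT tags were 104, 136 and 69.3 at telomere-type members, 38.1, 35.9 and 41.7 at multi-copy ones and 12.1, 11.7 and 10.5 in none of the groups. The part of tag height in recurrence was not tested. Members with no standard peak in another condition were most numerous for HDL, at 133 loci of which 97 were kept. There were 31 (14 kept) in unstimulated cells and 85 (33 kept) with HDL + CpG. HDL also had the longest list, 350 members among 5319 standard peaks. The lists of HDL + CpG (277 among 3790) and of unstimulated cells (197 among 2779) were shorter. The share of all standard peaks called in 1 condition only, or in all 3, was not worked out, so the recurrence counts have no background. Of the 126 loci that were members in 2 conditions, 27 were kept in both and 58 in neither.

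WT/KO was compared between conditions where standard peaks overlapped, by an exact test of the difference of ratios (noncentral hypergeometric), adjusted by Benjamini-Hochberg over all overlapping pairs. Between HDL and HDL + CpG, 30 of 123 pairs of members were higher with HDL and 6 lower, where 33.2% and 2.68% of all pairs were so called. Between unstimulated cells and HDL, 4 of 97 were higher in unstimulated cells and 13 lower (2.59% and 19.1% of all pairs), and between unstimulated cells and HDL + CpG, 15 of 89 were higher and 2 lower (25.1% and 2.47%). In the direction most pairs took, the members' share (24.4%, 13.4% and 16.9% in this order) was under that of all pairs, and between HDL and HDL + CpG its Wilson interval (17.7 to 32.7) lay below the share of all pairs. All 5 telomere-type pairs between HDL and HDL + CpG were called, beside 13 of 28 tandem repeats and 16 of 64 in none of the groups. Dividing both ratios by the median of repeat peaks moves every pair of a comparison alike, and the balance turned for all pairs as well as for members. By the same exact test, 9 pairs of members (7.32%) were then higher with HDL than with HDL + CpG and 62 (50.4%) lower. Of all pairs, 10.2% and 31.7% were so called. For unstimulated cells against HDL the counts were 22 (22.7%) and 0, beside 14.1% and 4.43% of all pairs. Against HDL + CpG they were 6 (6.74%) and 18 (20.2%), beside 7.75% and 12.1%. In the direction most pairs took on this scale, the members' share was above that of all pairs. Its Wilson intervals were 41.7 to 59.1, 15.5 to 32 and 13.2 to 29.7 in this order.

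The lowest p belonged to tracts and tandem repeats. The peak near Mgat4c, on an AG run, had 141 WT and 40.4 KO tags with HDL and 76.2 and 115 with HDL + CpG, a log2 difference of 2.40 (adjusted p = 2.53e-62, exact test), and that near Irx3, on an ACAG run, 60.4 and 16.9, then 37 and 39.4 (1.92, adjusted p = 8.26e-17, same exact test). In none of the groups, 4 loci went the other way, and they were singled out after their values were seen. Near Tmc1 there were 10 WT and 7.57 KO tags with HDL and 8.69 and 0.63 with HDL + CpG, the last being 3 reads, a WT/KO of 1.32 and 13.8 (4.41 to 69.4). Near Maf the ratio was 1.86 with HDL and 4.98 with HDL + CpG (adjusted p = 0.0154, exact test) and near Fmo9 1.44 and 4.42 (adjusted p = 0.00131, exact test). The fourth, near Tmem132b, was at 0.545 and 1.29 (adjusted p = 0.00124, exact test). An AP-1 sequence was within 100 bp of the centre near Tmc1, Maf and Fmo9 in the HDL + CpG list and not near Tmem132b. Of all HDL + CpG members in none of the groups, 43 of 134 (32.1%) had one. The 4 loci were not set against the 12 pairs of this kind called higher with HDL, so no link of the sequence to a direction can be read from them.

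**Figure D5:**
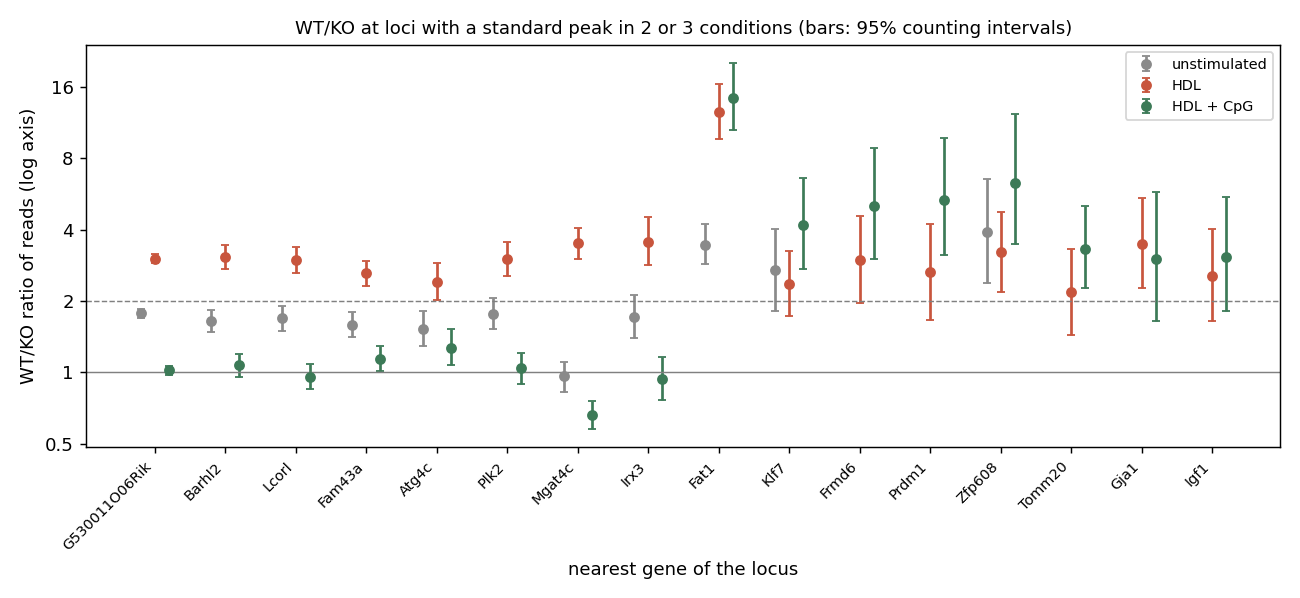
WT/KO (y axis, log scale) with exact 95% counting intervals at 16 loci named by their nearest gene (x axis), for each condition with a standard peak there. The 6 telomere-type loci on the left, from G530011O06Rik to Plk2, are highest with HDL and near 1 with HDL + CpG. Fat1 and 6 of the 7 loci to its right have their highest value with HDL + CpG, Gja1 being the exception. Fat1 and those 7 were kept under both treatments, which requires a WT/KO of at least 2 in each. None of their differences between HDL and HDL + CpG was called (exact test, adjusted p of 0.0838 or more). Of the 64 pairs of members in none of the sequence groups, 12 were called higher with HDL and 4 lower.

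Members with fewer WT than KO reads were few, in lists of peaks called in WT alone. Among members with at least 30 reads, low ratios were found near Tmem132b with HDL (10.8 WT and 19.8 KO tags, WT/KO 0.545, adjusted p = 8.70e-04, exact binomial test), near Drd1a, a dopamine receptor gene, with HDL + CpG (6.47 and 12.4, 0.521), near Cst10 with HDL + CpG (20.2 and 36.4, 0.555) and near Galr1, a galanin receptor gene, in unstimulated cells (11.6 and 17.1, 0.678) and with HDL (8.96 and 16.2, 0.553). The Tmem132b locus was at 0.934 in unstimulated cells and 1.29 with HDL + CpG, so this ratio did not recur. The peak near Chl1, a neural adhesion gene, was among the removed members of highest score with HDL, at 81.2 WT and 105 KO tags.

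The KOIN-corrected lists, read by the same rule, held 40 peaks in unstimulated cells, 208 with HDL and 68 with HDL + CpG. Of these 39, 203 and 66 overlapped a member, and 1, 5 and 2 had no standard peak beneath them. Their lowest WT/KO was 2.03, 2 and 2.05.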

How the data were processed

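ChIP-seq peak lists of 6 libraries were used, 1 pooled WT and 1 pooled KO library for each of 3 conditions, with groups taken from the labels. Per the labels and the methods, the authors joined the replicates, aligned reads to mm9, called peaks in WT alone (standard) or in WT against KO (KOIN-corrected) and annotated the calls. MACS 1.4.2, HOMER 4.3, Bowtie 0.12.8 and CASAVA 1.8 are listed in the processing notes of the submitters. The deposited tag values are a signal of reads scaled to 10000000 per library, and the deposited peak score is the caller's. The deposited columns of the authors' own fold comparisons were not used.

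Tags were turned back into reads with the library totals (each within 0.005 tags of a whole read). WT was set against KO by a two-sided exact binomial test, conditions were compared by the conditional exact test of 2 ratios, and both were adjusted by Benjamini-Hochberg over all standard peaks or all overlapping pairs at 0.05. Shares have 95% Wilson intervals. Intervals cover counting error only, since reads were not marked by molecule. DNA under peaks came from NCBIM37, and loci are members of any condition joined where they overlapped by at least 1 bp. Named peaks were, per condition, the 6 kept and 4 removed of highest score, the farthest, and the 2 of lowest ratio. Added to them over conditions were those at the distance limit, the 8 loci kept wherever they were members, the 6 of lowest p for a difference, and up to 3 per gene list. Others named were chosen after their values were seen. Members and lists were chosen with earlier results of these data known. Calculations used BLASTN 2.17.0, samtools 1.23.1 and Python 3.11.15 with pysam 0.24.0, scipy 1.17.1, pandas 2.3.3, matplotlib 3.10.9 and numpy 2.4.6, and were tested on simulated data. Alternatives changed the overlap, score, distance limit, repeats, chromosomes, merging, annotation, pseudocount, scale, adjustment, read minimum and motif window. Some sequences are not reported here.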

Additional observations from a re-analysis of the deposited data

Results flagged for a closer look

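At 6 loci the WT/KO ratio differed between HDL and HDL + CpG with the lowest p of all members, by the exact test of the difference adjusted by Benjamini-Hochberg. The log2 difference, HDL minus HDL + CpG, was 1.57 near G530011O06Rik, 2.40 near Mgat4c, 1.51 near Barhl2, 1.63 near Lcorl, 1.92 near Irx3 and 1.92 near 1700049L16Rik. Those near G530011O06Rik, Barhl2, Lcorl and 1700049L16Rik are telomere-type, and those near Mgat4c and Irx3 are tandem repeats. With both ratios divided by the median of repeat peaks, the differences were 0.56, 1.39, 0.51, 0.63, 0.91 and 0.91, and all 6 remained past the adjusted threshold with adjusted p between 5.91e-33 and 6.40e-04 (exact test). Each value compares 4 pooled libraries, and the condition and its libraries cannot be told apart.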

How the results depend on the processing

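No paired analysis was possible because each genotype and condition had 1 pooled library, and for the same reason no replicate could be left out. Of the main values, 28 alternatives stayed within the counting interval or 1.5 times the count and 56 did not. The cause was not tested. The alternative without the sequence groups was chosen after seeing the data.

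The share kept in unstimulated cells was 10.6% at a score of at least 60, 4.88% at 100, 13.9% beyond 200 kb, 9.88% with intergenic peaks on repeats added and 36.6% without the sequence groups. With HDL it was 65.6% at a score of 60, 44.2% with repeats, 65.5% on autosomes and 69.4% without the groups. With HDL + CpG it was 15.6% and 15.4% at scores of 60 and 100, 30.3% beyond 50 kb, 16.4% beyond 200 kb, 11% with repeats, 30.4% on autosomes and 42.5% without the groups.

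The share with a WT/KO of at least 2 in unstimulated cells was 10.2% on the scale of repeat peaks, 14.9% and 4.88% at scores of 60 and 100, 17.6% with repeats, 35.1% on autosomes and 43.7% without the groups. With HDL it was 60% with a pseudocount of 1 tag, 9.14% on the scale of repeat peaks, 71.8% at a score of 60, 59.5% beyond 200 kb, 56.2% with repeats, 75.3% on autosomes and 77.1% without the groups. With HDL + CpG it was 18.8% and 17.3% at scores of 60 and 100, 37.1% beyond 50 kb, 19.2% beyond 200 kb, 14.5% with repeats, 37.3% on autosomes and 50.7% without the groups.

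The share with an AP-1 sequence in unstimulated cells was 3.08% with repeats and 15.5% without the groups. With HDL it was 8% within 50 bp, 6.38% with repeats and 29.4% without the groups, and with HDL + CpG 12.6%, 5.9% and 32.1%, and 10.2% at a score of 60. More WT reads were found at 29 and 41 members in unstimulated cells and with HDL on the scale of repeat peaks, and at 40, 125 and 41 in the 3 conditions with a Bonferroni adjustment. Differences between conditions on that scale were called at 22 pairs higher and 0 lower for unstimulated cells against HDL, 6 and 18 against HDL + CpG, and 9 and 62 for HDL against HDL + CpG.

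Of 79 named peaks, 79 stayed within their interval with a pseudocount and 33 on the scale of repeat peaks. There, 8 of the peaks called by the exact binomial test changed direction, and peaks not called were left out of this count. With HDL they were near 1700019M22Rik (0.646), Nxph1 (0.787), Slc39a10 (0.614), Tomm20 (0.989) and Bach2 (0.982). In unstimulated cells they were near Rag2 (0.933), Nlgn1 (0.962) and Olfr161 (0.77). Depth limits the ratios of peaks with few KO reads most, such as those near Tmc1 and Epha7 at 3 reads.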

Other observations

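Some kept members fell outside the groups described so far. Near Igfbp3, an IGF binding protein gene, a peak 156 kb upstream had 5.65 WT and 0.4 KO tags in unstimulated cells, a WT/KO of 14.1 (4.25 to 74.5) on 3 KO reads. Near Gm8709 HDL gave a ratio of 9.95 (4.41 to 26.3) and HDL + CpG one of 2.75 (1.5 to 5.33). Near Ahr, the aryl hydrocarbon receptor gene, different loci were kept, at 143 kb in unstimulated cells (13.2 WT and 2.25 KO tags) and at 117 kb with HDL (11.1 and 3.03). Near Map3k7, a kinase gene of Toll-like receptor signalling, a peak at 174 kb was removed in both stimulated conditions, with 15.6 and 6.21 tags with HDL and 10.9 and 14.3 with HDL + CpG.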
